A study of Homo sapiens with 3 samples.

Results

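TGF-beta and BMP response genes were followed in A375 cells, an established human melanoma line, by poly(A) RNA sequencing. The set held 10 genes chosen by symbol from the 58037 genes of the count table, namely ID1, ID2, ID3, SMAD6, SMAD7, SMAD9, BMP4, TGFB1, TGFB2 and TGFBI. The 3 libraries were cells kept for 24 h in serum-free DMEM (control), in the secretome of young adipocytes (YA-A375) or in the secretome of old adipocytes (OA-A375). A secretome was serum-free DMEM conditioned by adipocytes that had been differentiated in culture from human subcutaneous preadipocytes, so all 3 libraries came from cells without serum, and the control medium had not been in contact with adipocytes. The question was how the genes of these pathways differed between melanoma cells that had seen young or old adipocyte secretomes and those that had not.

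Each group had 1 library. No difference given here therefore has a replicate check, no p-value was computed, and every interval is a 95% Clopper-Pearson interval of the ratio between a pair of libraries that covers counting error only. The comparisons of YA-A375 and OA-A375 with control share the control library. The sample labels used here name no adipocyte donor. In the paper's donor list the older donors were all male and mostly from a biobank. Most younger ones were female, with purchased chest cells. Donor, sex, site and source therefore cannot be told apart from donor age in YA against OA. Total counts ran from 18089008 in OA to 21448195 in control. A normalised count is a count divided by the library's size factor, and a gene was called higher or lower when the log2 fold change of normalised counts with a pseudocount of 1 passed 1.2-fold. All 10 genes had a mean normalised count of at least 20, as did 14413 of all genes, although SMAD9 was below 20 in control and passed through YA and OA. Fewer cells that express a gene and less of its RNA per cell cannot be told apart in bulk RNA.

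TGF-beta and bone morphogenetic proteins (BMPs) are secreted dimers that bind pairs of serine/threonine kinase receptors. TGF-beta receptors mainly phosphorylate SMAD2 and SMAD3, BMP receptors mainly phosphorylate SMAD1, SMAD5 and SMAD9, and either set joins SMAD4 and enters the nucleus to bind DNA. ID1, ID2 and ID3 are classic BMP target genes, whose proteins bind E proteins and keep them from DNA, while SMAD6 and SMAD7 are inhibitory SMADs that many cells induce as feedback. TGFBI encodes a secreted matrix protein first found as a TGF-beta-induced transcript, and melanoma cells are known to secrete TGF-beta ligands themselves.

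The start-site sequences of these genes were searched for short motifs that SMADs and E proteins are known to bind. RefSeq promoter windows on GRCh38.p14, from 250 bases before to 50 after a start, were found for all 10 genes, in 14 windows, and motifs were searched on both strands. GGCGCC, a GC-rich motif of the BMP SMADs, was in 2 of the 14 windows, of BMP4 and TGFBI, against 19.2% of all 35116 windows. CAGAC, the SMAD box, reads GTCTG on the other strand. It was in 8 of the 14 windows, spread over ID3, SMAD7, SMAD9, BMP4 and TGFB2, against 45.3% of all windows. CAGCTG, an E-box that E proteins can bind, was in the ID2 window alone, 1 of the 14, against 17.9%. GTCTAGAC, a pair of SMAD boxes facing each other in 8 bases that holds no full CAGAC, was in the SMAD6 window and in 0.202% of all windows. That last motif was added after the sequences had been seen. A match describes letters only, and nothing about binding in A375 was measured. In the ID3 window all 250 bases before the start lie within an annotated exon of ID3, so its match is in exon sequence. The same holds for the SMAD7 window at chr18:48950916-48951215, with CAGAC 217 and 128 bases before the start. It also holds for GTCTG 46 bases before the start in the BMP4 window at chr14:53953346-53953645. The SMAD6 GTCTAGAC runs into an exon that covers the 8 bases before the start. The ID2 CAGCTG, 205 bases before the start, also runs into an exon. Stretches before the first exon, or 30 bases around a match, are printed for ID1 and ID3, for SMAD6 with its paired box, and for BMP4, TGFB2 and TGFBI, the genes with the widest ratios between the secretomes, with motif letters in capitals and the rest in lower case, 5′ to 3′ on the gene's strand. They are ID1 (chr20:31605039-31605282, plus strand, none of the 4 motifs), ID3 (chr1:23559631-23559660, minus, CAGAC beginning 147 bases before the start), SMAD6 (chr15:66702213-66702242, plus, GTCTAGAC beginning 12 bases before the start), BMP4 (1 of its 3 windows, chr14:53955051-53955300, minus, GGCGCC 232 and GTCTG 181 bases before), TGFB2 (chr1:218345086-218345335, plus, CAGAC 243 and 53 bases before) and TGFBI (chr5:136028738-136028894, plus, GGCGCC 111 bases before).
ID1: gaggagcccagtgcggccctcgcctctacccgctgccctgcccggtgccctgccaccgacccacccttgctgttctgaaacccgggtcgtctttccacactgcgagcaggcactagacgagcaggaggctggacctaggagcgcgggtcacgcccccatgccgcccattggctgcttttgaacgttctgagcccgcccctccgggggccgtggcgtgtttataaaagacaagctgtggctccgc
ID3: ggtcttcggcgtCAGACcagccggaggaag
SMAD6: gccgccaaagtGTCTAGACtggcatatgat
BMP4: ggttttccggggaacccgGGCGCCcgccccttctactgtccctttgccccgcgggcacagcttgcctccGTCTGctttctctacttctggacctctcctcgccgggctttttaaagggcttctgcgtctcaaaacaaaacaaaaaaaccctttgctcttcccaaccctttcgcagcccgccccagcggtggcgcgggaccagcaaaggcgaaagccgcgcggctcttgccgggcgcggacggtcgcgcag
TGFB2: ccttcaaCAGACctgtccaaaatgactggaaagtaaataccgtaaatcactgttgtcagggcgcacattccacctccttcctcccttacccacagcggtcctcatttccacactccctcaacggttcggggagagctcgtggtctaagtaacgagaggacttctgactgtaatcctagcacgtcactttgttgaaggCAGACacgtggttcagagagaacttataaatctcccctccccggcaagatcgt
TGFBI: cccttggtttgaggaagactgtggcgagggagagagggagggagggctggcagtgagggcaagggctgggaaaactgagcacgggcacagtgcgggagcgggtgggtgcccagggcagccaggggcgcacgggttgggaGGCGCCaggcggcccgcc

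The 3 ID genes of the set were higher after both secretomes, and ID1 and ID3 were higher in OA-A375 than in YA-A375. ID4, a family member outside the set, was lower after both and is described with the further BMP-response genes. ID1 (ENSG00000125968.8; GRCh38 chromosome 20, 31605283 to 31606515) gave 745 counts in control, 1319 after YA and 2075 after OA, or 702.01, 1247 and 2329 normalised counts. Every step of that order lay outside counting error. Its ratio to control was 1.78 after YA (interval 1.62 to 1.95) and 3.32 after OA (3.05 to 3.61). The ratio between the secretomes was 0.535 (YA to OA, 0.499 to 0.574). ID1, whose protein blocks basic helix-loop-helix factors, thus went from the 58.7% to the 85.6% point of the tested genes ranked by normalised count between control and OA.

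ID3, a close relative of ID1 with the same mode of action, showed the widest ratio to control of the 10 genes in both comparisons. ID3 (ENSG00000117318.8; chromosome 1, 23557918 to 23559794) gave 161 counts in control, 593 after YA and 835 after OA, which are 152, 560.45 and 937 normalised counts. The control library was the low one and the others did not overlap with it or with each other. The ratio to control was 3.69 in YA (3.099 to 4.43) and 6.18 in OA (5.21 to 7.36). Of all genes tested, 99.7% had a lower log2 fold change than ID3 for YA to control, and 99.73% for OA to control. YA stood at 0.598 of OA (0.537 to 0.665).

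ID2, the third ID gene of the set, had the lowest level of the 3 per kilobase of exon. It had the same level after both secretomes within counting error. ID2 (ENSG00000115738.9; chromosome 2, 8678845 to 8684453) gave 50 counts in control, 94 after YA and 81 after OA, or 47.1, 88.8 and 90.9 normalised counts. The ratio was 1.89 in YA (1.32 to 2.71) and 1.93 in OA (1.34 to 2.80), and YA to OA was 0.977 (0.718 to 1.33). A difference between the secretomes inside that last interval was not detectable at this depth. An antisense gene that shares 38 exonic bases with ID2 had at most 1 count in any library.

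The ID transcripts did not keep their proportions. Dividing the ID3 count by the ID1 count within a library removes the scaling between libraries, and this quotient was 0.216 in control, 0.450 after YA and 0.402 after OA. It was 2.08 times the control quotient in YA (1.70 to 2.55) and 1.86 times in OA (1.54 to 2.26), while YA against OA gave 1.12 (0.983 to 1.27), an interval that spans 1. The ID1 to ID2 quotient was 1.72 times control in OA (1.17 to 2.502) and 0.942 times control in YA (0.647 to 1.36). Of the summed normalised counts of the 3 genes, 901 in control, 1896 after YA and 3357 after OA, ID1 took 77.9%, 65.8% and 69.4% and ID3 took 16.8%, 29.6% and 27.9% in that order. ID1 was the most counted of the 3 in every library.

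**Figure D1:**
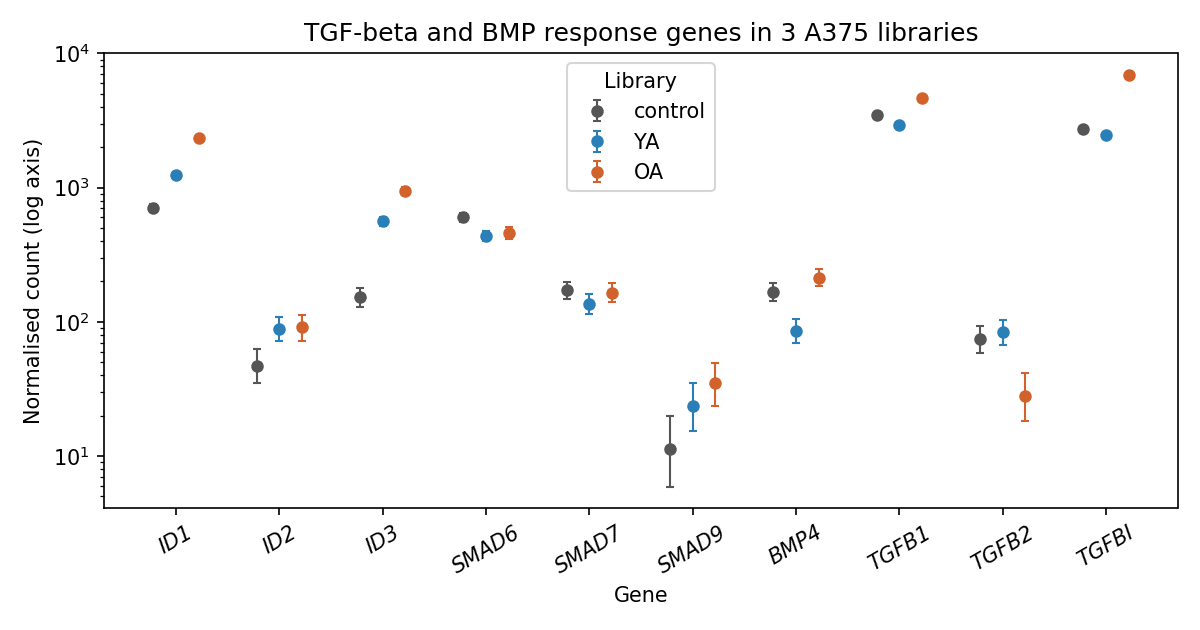
Normalised counts (log axis) of the 10 genes in the control, YA and OA libraries, 1 library each, with bars for the 95% counting interval. ID1 and ID3 step up from control to YA to OA, TGFBI stands apart in OA at 6891 normalised counts, and TGFB2 is lowest in OA at 28.1.

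SMAD6, an inhibitory SMAD that mainly restrains BMP receptors, was lower after both secretomes while ID1, ID2 and ID3 were higher. SMAD6 (ENSG00000137834.14; chromosome 15, 66702228 to 66782848) gave 639 counts in control, 462 after YA and 409 after OA, or 602, 437 and 459 normalised counts. The control library was the high one. It was 1.38-fold lower in YA (1.22 to 1.56) and 1.31-fold lower in OA (1.16 to 1.49), and YA to OA was 0.951 (0.831 to 1.09). The ID1 to SMAD6 quotient was 2.45 times that of control in YA (2.10 to 2.85) and 4.35 times in OA (3.74 to 5.07).

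SMAD7, the inhibitory SMAD that acts on both branches of the family, was closer to control than SMAD6 in both comparisons with control. SMAD7 (ENSG00000101665.8; chromosome 18, 48919853 to 48952052) gave 182, 144 and 147 counts in control, YA and OA, or 172, 136 and 165 normalised counts. YA was the lowest library, 1.26-fold below control with an interval of 1.01 to 1.58, and OA was at 0.962 of control (0.769 to 1.202). The interval of YA to OA, 0.651 to 1.05 around 0.825, spanned 1. The quotient of SMAD6 to SMAD7 did not differ from control beyond counting error in either comparison (0.914, 0.707 to 1.18, in YA and 0.793, 0.612 to 1.03, in OA).

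SMAD9, a receptor-regulated SMAD of the BMP branch, was counted least of the 10 genes in control and YA. SMAD9 (ENSG00000120693.13; chromosome 13, 36844831 to 36920765) gave 12 counts in control, 25 after YA and 31 after OA, or 11.3, 23.6 and 34.8 normalised counts. The ratio to control was 2.09 in YA, with a wide interval of 1.01 to 4.56, and 3.08 in OA (1.54 to 6.58). The secretome libraries overlapped within counting error (0.679, 0.384 to 1.19). A pseudocount of 5 in place of 1 moved SMAD9 in OA more than any other value of the 10 genes, by 0.253 on the log2 scale.

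Among the ligands, BMP4 and TGFB1 were lower than control after YA and higher after OA, and TGFB2 was lower after OA. BMP4 is a BMP ligand with roles from embryonic patterning to bone formation. BMP4 (ENSG00000125378.15; chromosome 14, 53949736 to 53958761) gave 177 counts in control, 91 after YA and 190 after OA, or 167, 86.0 and 213 normalised counts. YA was the low library, 1.94-fold below control (1.498 to 2.53) and 2.48-fold below OA (1.92 to 3.22). OA was 1.28 times control with an interval of 1.04 to 1.58.

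TGFB1, the most widely expressed TGF-beta ligand, followed the same order of libraries, with OA highest and YA lowest. TGFB1 (ENSG00000105329.9; chromosome 19, 41301587 to 41353911) gave 3719 counts in control, 3079 after YA and 4124 after OA, or 3504, 2910.0 and 4629 normalised counts. The ratio to control was 0.830 in YA (0.791 to 0.871) and 1.32 in OA (1.26 to 1.38), and YA was 1.59-fold below OA (1.52 to 1.67). The decrease in YA lies at the edge of the 1.2-fold line and is not called under total-count scaling. TGFB1 shares 215 exonic bases with HNRNPUL1 on the opposite strand, which had 12610, 13291 and 11674 counts in control, YA and OA, and the use of strand in counting is not given in the sources used here.

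TGFB2, a second TGF-beta ligand with its own receptor needs, was the 1 gene of the set that was lower in OA than in both other libraries. TGFB2 (ENSG00000092969.11; chromosome 1, 218346235 to 218444619) gave 79 counts in control, 89 after YA and 25 after OA, or 74.4, 84.1 and 28.1 normalised counts. OA was the low library, 2.65-fold below control (1.67 to 4.34). YA did not differ from control beyond counting error (1.13, 0.825 to 1.55) and was 3.00 times OA (1.91 to 4.88). The TGFB1 to TGFB2 quotient of counts was 47.1 in control, 34.6 after YA and 165 after OA, and in OA it was 3.50 times the control quotient (2.20 to 5.75). TGFB2 shares 1371 exonic bases with TGFB2-OT1 on the same strand, which had 0 counts in every library. How reads in shared bases were counted is not given, so the level of TGFB2 per kilobase is uncertain.

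TGFBI (ENSG00000120708.16; chromosome 5, 136028895 to 136063818), the secreted matrix protein named for its induction by TGF-beta, had 2914 counts in control, 2595 after YA and 6139 after OA, or 2746, 2453 and 6891 normalised counts. OA was the high library by far and YA the lowest. The ratio to control was 2.51 in OA (2.40 to 2.62) and 0.893 in YA (0.847 to 0.942), the latter inside the 1.2-fold range. TGFBI in YA was 2.81-fold below OA (2.68 to 2.94), and 98.5% of genes had a lower log2 fold change in OA against control. The TGFBI to TGFB1 quotient of counts was 1.90 times control in OA (1.78 to 2.02) and 1.08 times in YA (1.001 to 1.16).

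**Figure D2:**
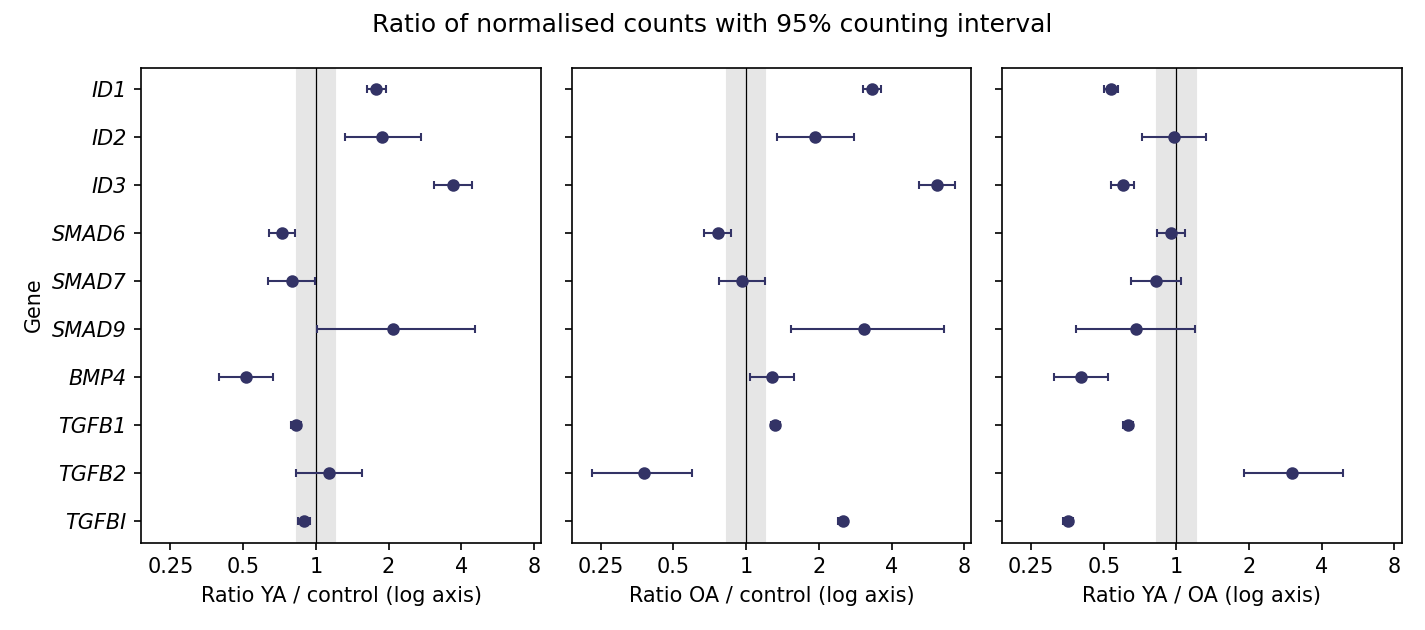
Ratios of normalised counts (log axes) for the 10 genes in YA to control, OA to control and YA to OA, with 95% counting intervals; the grey band is the range within 1.2-fold. ID1, ID2 and ID3 lie right of the band in both comparisons with control, while BMP4 and TGFB1 lie on opposite sides of 1 in YA and OA.

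Counted over the set, YA against control gave 4 of 10 genes at least 1.2-fold higher (ID1, ID2, ID3 and SMAD9), where 17.4% of all genes tested were, and 4 lower (SMAD6, SMAD7, BMP4 and TGFB1), where 16.4% were. The counting interval lay wholly above 1.2-fold for the 3 ID genes (6.03% of all genes) and wholly below for SMAD6 and BMP4, 2 genes (4.44%). The median log2 fold change was 0.01 over the set and -0.02 over all genes, since the higher and lower genes balanced.

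OA against control gave 7 of 10 higher (ID1, ID2, ID3, SMAD9, BMP4, TGFB1 and TGFBI; 21.1% of all genes) and 2 lower (SMAD6 and TGFB2; 21.5%). The interval was wholly above 1.2-fold for 6 of them, all of the higher genes but BMP4 (9.04%), and wholly below for 1, TGFB2 (9.08%). The median was 0.67 on the log2 scale, against 0.01 over all genes. Between the secretomes 1 gene, TGFB2, was higher in YA (23.0% of all genes) and 7 were lower in YA (ID1, ID3, SMAD7, SMAD9, BMP4, TGFB1 and TGFBI; 21.5%). The intervals were wholly beyond 1.2-fold for TGFB2 upward, 1 gene (10%), and for ID1, ID3, BMP4, TGFB1 and TGFBI downward, 5 genes (9.03%). The median of YA against OA was -0.60 over the set and -0.01 over all genes. The genes were chosen with earlier results of these libraries known, so these counts describe the set and are not evidence about it.

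**Figure D3:**
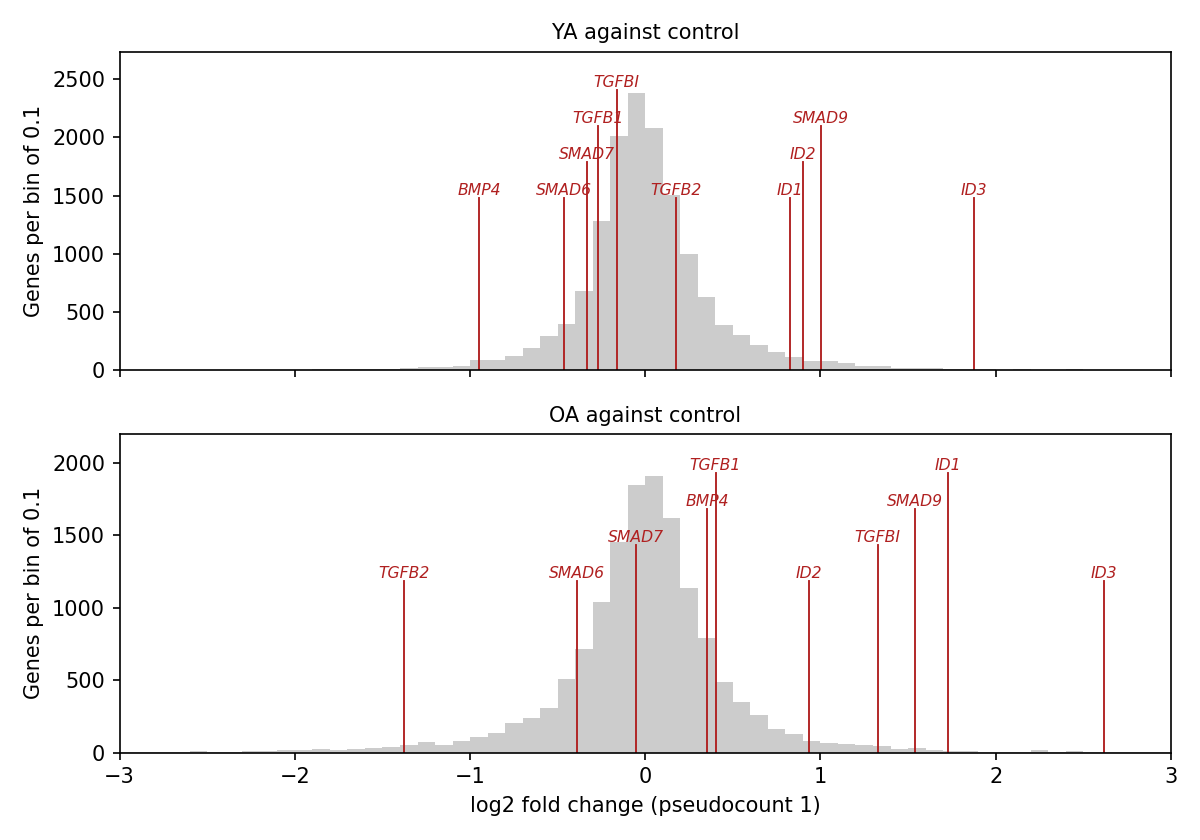
Histograms of log2 fold changes (pseudocount 1) of the 14413 genes tested, as genes per bin of 0.1, for YA against control and OA against control, drawn from -3 to 3, with 10 genes outside that range in YA and 70 in OA. Lines mark the 10 genes; ID3 lies far to the right in both panels, and TGFB2 lies far to the left in OA.

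Levels were compared between genes as normalised counts per kilobase of exon. In control the order was TGFB1 (1082), ID1 (569), TGFBI (352), ID3 (84.4), SMAD6 (70.3), BMP4 (54.1), SMAD7 (34.1), ID2 (21.4), TGFB2 (14.5) and SMAD9 (1.98), with ID3 and SMAD6, and ID2 and TGFB2, not apart beyond counting error. A ligand transcript therefore led the set in control, while ID1 led in YA (1011) and in OA (1889). In YA, TGFBI (314) and ID3 (312) had the same level within counting error, as did BMP4 (27.9) and SMAD7 (27.0), and the interval of ID2 (40.3) overlapped those of SMAD6 (50.992) and BMP4. In OA the lowest pair, SMAD9 (6.08) and TGFB2 (5.45), could not be told apart, and ID2 (41.2) overlapped with SMAD6 (53.6) and SMAD7 (32.8). The order of TGFB1 and ID1 in YA, of ID1 and TGFBI in control and of ID2 and BMP4 in YA turned when the longest transcript gave the length, which in control raised TGFBI to 589, SMAD6 to 116 and BMP4 to 87.0.

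The other genes of the pathway were taken from 8 lists, described by counts and medians. For reading their counts, of all genes tested YA had 17.4% higher and 16.4% lower than control, and OA had 21.1% higher and 21.5% lower. Of 30 further ligands 11 were measured at a mean of at least 20, with 4 higher and 4 lower in YA against control and 5 higher and 4 lower in OA. GDF15, a stress-induced distant member of the family, had 80 counts in control, 382 after YA and 194 after OA, 4.79 times control in YA (3.75 to 6.17) and 2.89 times in OA (2.22 to 3.80). INHBE, an inhibin beta subunit, had 12, 51 and 9 counts and was 4.26 times control in YA (2.24 to 8.78), and it passed the mean of 20 through YA alone. BMP7, another BMP ligand, had 60, 66 and 13 counts and was 3.87-fold lower in OA (2.10 to 7.69). BMP2 and BMP6, chosen after their values were seen, had the order of BMP4, with 235, 169 and 513 counts and 103, 69 and 143 counts. TGFB3, also chosen in that way, had 81, 71 and 30 counts, 2.27-fold lower in OA (1.47 to 3.57), beside the decrease of TGFB2.

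Of 18 receptor genes 14 were measured, with 1 higher and 5 lower in YA and 5 higher and 4 lower in OA, and none had an interval wholly beyond 1.2-fold in OA against control. ENG, a co-receptor for TGF-beta and BMP ligands, was the most counted receptor gene, also per kilobase of exon (566, 564 and 626 normalised counts), and hardly differed between libraries (2362, 2349 and 2194 counts). TGFBR3, betaglycan, which presents TGF-beta2 to its receptors, had 132, 75 and 161 counts, 1.75-fold lower in YA (1.31 to 2.36) and 1.45 times control in OA (1.147 to 1.84). BMPR1B, a type I BMP receptor, had 30, 16 and 43 counts, and YA to OA was 0.313 (0.165 to 0.568).

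All 5 other SMAD genes were measured, and none was called in YA. In OA 1 was higher, SMAD3, the TGF-beta receptor SMAD, with 3598 counts in control, 3874 after YA and 4980 after OA, 1.65 times control in OA (1.58 to 1.72). The BMP receptor SMADs SMAD1 and SMAD5 were within 1.2-fold in both comparisons with control.

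Extracellular regulators, which trap ligands or release them from latency, counted 16 of 27 measured, with 6 higher and 5 lower in YA and 7 higher and 3 lower in OA. NOG, the BMP antagonist noggin, had 104, 43 and 22 counts, 2.41-fold lower in YA (1.67 to 3.53) and 3.97-fold lower in OA (2.49 to 6.60). FST, follistatin, which binds activins and was chosen after its values were seen, went the same way, with 4558, 2365 and 1144 counts. FSTL3, a follistatin-like gene also chosen in that way, went the other way, with 1291, 2373 and 1806 counts. It was 1.84 times control in YA (1.72 to 1.97) and 1.67 times in OA (1.55 to 1.79). LTBP1, which holds latent TGF-beta in the matrix, had 149, 92 and 265 counts, 1.61-fold lower in YA (1.24 to 2.12) and 2.12 times control in OA (1.73 to 2.61). DCN, the proteoglycan decorin, had 13, 138 and 24 counts, 10.6 times control in YA (6.02 to 20.5). It was below 20 in control, at 12.3 normalised counts, and passed the mean of 20 mainly through YA, at 130.

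Of 16 intracellular regulators 15 were measured, with 3 higher and 1 lower in YA and 7 higher and 1 lower in OA, and their median in OA was 0.20 on the log2 scale against 0.01 over all genes. PMEPA1, a TGF-beta target that restrains SMAD2 and SMAD3, had 918 counts in control, 1452 after YA and 4135 after OA, 1.59 times control in YA (1.46 to 1.73) and 5.37 times in OA (4.99 to 5.77). SMURF2, a ubiquitin ligase of the pathway, had 2340, 2163 and 2946 counts and was 1.4997 times control in OA (1.42 to 1.58). BAMBI, a decoy receptor, had 639, 559 and 676 counts and was 1.26 times control in OA (1.13 to 1.41).

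Further BMP-response genes did not share one direction with ID1, ID2 and ID3. Of 15 listed 11 were measured, with 4 higher and 3 lower in YA and 4 higher and 4 lower in OA. ID4, the fourth ID gene, had 144 counts in control, 76 after YA and 12 after OA, 1.89-fold lower in YA (1.42 to 2.53) and 10.1-fold lower in OA (5.59 to 19.95). HES1, a repressor also driven by Notch, had 1593, 2446 and 333 counts, 1.54 times control in YA (1.45 to 1.64) and 4.02-fold lower in OA (3.57 to 4.53). MSX1, a homeobox gene, had 232, 253 and 474 counts and was 2.43 times control in OA (2.08 to 2.86).

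Further TGF-beta-response genes were mixed as well. Of 30 symbols 28 were in the table and 23 were measured, with 5 higher and 8 lower in YA, 7 higher and 10 lower in OA, and a median in OA of -0.15 on the log2 scale. PDGFB, a growth factor, had 219, 191 and 43 counts, 4.28-fold lower in OA (3.07 to 6.08). SNAI2, a transcription factor of epithelial-mesenchymal change, had 59, 37 and 14 counts, 3.54-fold lower in OA (1.95 to 6.86). The targets of ID proteins, the 3 E-protein genes, were all measured and none was called in YA, while in OA TCF4 was 1.31 times control (1.14 to 1.51) and TCF12, the most counted of them, was 1.33-fold lower (1.27 to 1.39).

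**Figure D4:**
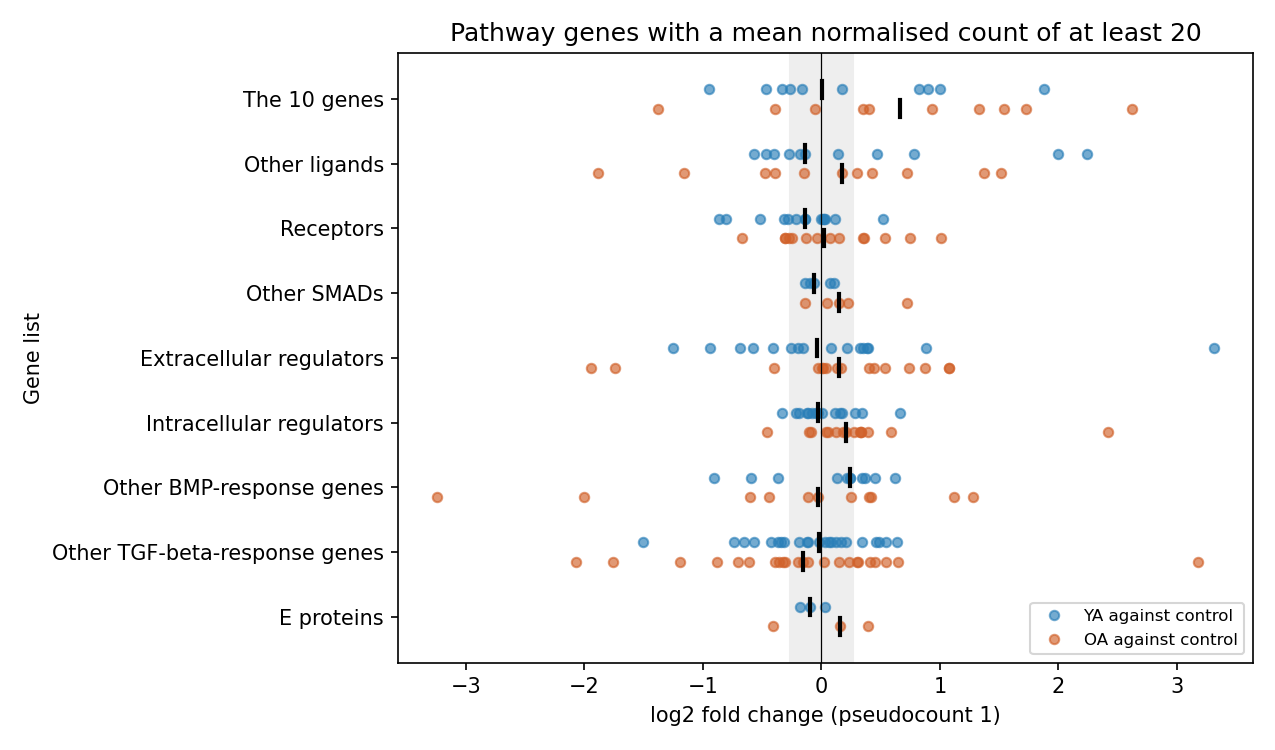
Log2 fold changes (pseudocount 1) against control of the 10 genes and of the measured genes in 8 other lists of the pathway, for YA and OA; each point is a gene, black ticks are list medians and the grey band is within 1.2-fold. The 10 genes have the highest median of the lists in OA (0.67), and the further TGF-beta and BMP response genes spread on both sides of 0. The genes and lists were chosen with earlier results of these libraries known, so the order of the medians is not evidence about the set.

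Markers of the cells were read in the same libraries. The 18 melanocyte and neural crest markers summed to 27563 normalised counts in control, 26288 after YA and 23448 after OA. ERBB3 (11471, 12641 and 6195 counts) and AXL (9837, 8832 and 10449) were the most counted of them. Of the 11 measured, YA had 1 higher and 5 lower, and OA 1 higher and 6 lower. For reading the marker counts, of all genes tested YA had 17.4% higher and 16.4% lower than control. OA had 21.1% higher and 21.5% lower. MITF had 1221, 764 and 881 counts and RXRG 708, 487 and 16. SOX10 was at 0 counts in all 3 libraries and TYR at 2, 0 and 0. PMEL (2, 10 and 10), MLANA (22, 18 and 16), TYRP1 (6, 3 and 3), DCT (2, 1 and 2) and KIT (2, 1 and 0) were also low. The 14 adipocyte markers summed to 2305 in control, 3289.9 after YA and 2343 after OA. PPARG alone gave 1515, 1856 and 1717 normalised counts of these sums. The 8 adipocyte markers that were measured were all called higher in YA against control, with a median of 0.84 on the log2 scale. The counting interval lay wholly above 1.2-fold for 5 of them, where 6.03% of all genes had such an interval. In OA 4 were higher and 1 lower. PLIN4 had 284, 579 and 321 counts in control, YA and OA, LIPE 79, 153 and 67, CIDEC 6, 31 and 36, and LPL 353, 583 and 30. The defining adipocyte genes ADIPOQ (1, 0 and 0 counts), LEP (0 in all) and PLIN1 (2, 5 and 2) were at or near 0. The 14 fibroblast and preadipocyte markers summed to 979.99, 1339 and 1712 normalised counts, but without COL6A3 (145, 302 and 886 counts) the sums were 843, 1054 and 717, with OA lowest. Against control, YA had 4 of the 7 measured higher (DCN, COL6A3, COL1A1 and LUM) and 1 lower (PDGFRA). OA had 3 higher (DCN, COL6A3 and COL1A1) and 3 lower. DCN had 13, 138 and 24 counts in control, YA and OA, COL1A1 75, 117 and 84, and LUM 66, 101 and 58. Of these, DCN passed the mean of 20 mainly through YA, where it was high. In OA the lower ones were FBLN1, PDGFRA and PDGFRB, and the median was 0.07 on the log2 scale. COL1A2 had 1, 1 and 2 counts, COL3A1 0, 1 and 1, and DPT 0 in all 3. The part of these genes in the differences of the set was not tested.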

How the data were processed

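RNA from A375 cells in 3 groups (control, YA, OA; 1 library each) was sequenced as poly(A) libraries on an Illumina NovaSeq. The authors deposited raw counts per gene for 58037 genes. The submitters' processing notes name STAR 2.5.1b, featureCounts, R 3.6.1 and hg38, without their roles. The annotation release, the use of strand and the counting options are not given in the sources used here, so counts of overlapping genes are uncertain. Groups were taken from the treatment labels, and the exposure of 24 h from the series description, although the treatment protocol allows longer exposures.

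Counts were divided by DESeq2 1.42.0 median-of-ratios size factors (1.06 for control, 1.06 for YA and 0.891 for OA; R 4.3.3), the tool named in the study's methods. Fold changes were log2((a + 1)/(b + 1)), over the 14413 genes whose normalised counts averaged 20 or more, which held 99.71% of counts. The 1.2-fold cutoff is the study's, read as a linear fold. With 1 library per group edgeR's test could not be run. Ratios carry a 95% Clopper-Pearson interval, which compares libraries and covers counting error only, since amplified reads are not separate molecules. A count of 0 allows up to 3 counts. The interval of a ratio of 2 genes between libraries was the conditional exact interval of the odds ratio. The code was tested on simulated counts. Positions and exon lengths came from GENCODE 29, which held 57433 of the 58037 identifiers, and promoter windows from RefSeq (GRCh38.p14). Other steps used Python 3.11.15 (scipy 1.17.1, numpy 2.4.6, matplotlib 3.10.9 and pandas 2.3.3).

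The members and lists were chosen with earlier results of these data known. Beside the 10 genes, the text names from each list up to 3 measured genes whose interval lies wholly beyond 1.2-fold in a comparison, by largest change, and the most counted receptor, SMAD and E protein. A gene of the TGF-beta-response list that this rule selects is not reported here. Alternatives were scaling by total counts or by TMM (edgeR 4.0.16), a pseudocount of 5, a 2-fold cutoff, the interval as cutoff, no filter, a minimum mean of 100, and the longest transcript as length.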

Additional observations from a re-analysis of the deposited data

Results flagged for a closer look

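For 3 of the 10 genes the ratios to control lay on opposite sides of 1 in the 2 secretome libraries, with both counting intervals clear of 1. On the log2 scale BMP4 was at 0.35 in OA and -0.95 in YA, TGFB1 at 0.40 in OA and -0.27 in YA, and TGFBI at 1.33 in OA and -0.16 in YA. Among the named genes of the other lists the same held for 7. Of these, BMP2 and BMP6 were chosen after their values were seen. The share of all tested genes that did so was not computed, so neither count sets these genes apart. BMP2 was at 1.37 in OA and -0.47 in YA, BMP6 at 0.72 and -0.57, LTBP1 at 1.08 and -0.69, TGFBR3 at 0.54 and -0.80, SMURF2 at 0.58 and -0.11, and BAMBI at 0.33 and -0.19, in that order. HES1 went the other way, at -2.00 in OA and 0.62 in YA. In YA, TGFBI, SMURF2 and BAMBI were within 1.2-fold of control. The difference between the secretomes was not tested for any of these genes, because each group has 1 library, and both values rest on the same control library. No group had enough samples to look for an outlying one.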

How the results depend on the processing

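All 90 fold changes of the 10 genes recomputed under TMM scaling, total-count scaling or a pseudocount of 5 kept their direction and moved by less than their counting interval. The largest shifts were 0.014 (TGFBI, TMM), 0.012 (TGFBI, total count) and 0.253 (SMAD9, pseudocount of 5) on the log2 scale. Of the calls at 1.2-fold, 1 changed, TGFB1 in YA against control under total-count scaling. Counts of genes moved with the threshold by construction. At 2-fold, YA against control had 2 genes higher and 0 lower, OA against control had 4 higher and 1 lower, and YA against OA had 1 higher (TGFB2) and 2 lower. The shares of all genes at 2-fold or at a minimum mean of 100 were not computed, so the counts at these settings describe the set only. By the counting interval, YA against control had 2 lower and OA against control had 1. With a minimum mean of 100, which leaves out ID2, SMAD9 and TGFB2, YA against control had 2 genes higher, OA against control had 1 lower and YA against OA had 0 higher. Without a filter the counts were the same, since all 10 genes pass it. No paired analysis was possible because each group has 1 library. Depth limited SMAD9, TGFB2 and ID2 most, with 12 to 94 counts per library, and no setting here bears on the spread between cultures, which was not measured.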
